A study of Mus musculus with 6 samples.

Results

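Mitochondrial ribosomal proteins were examined in αTC1 cells, a mouse glucagonoma line of pancreatic α cells, after treatment with compound 1 or its solvent DMSO. The members are the protein-coding genes of the deposited count table whose symbol is Mrpl or Mrps followed by a number and at most 1 letter. The rule found 78 of 55487 genes, 49 of them Mrpl and 29 Mrps, and used no measured value. The series describes the treatment as an inhibitor of SMNDC1, a splicing factor that reads dimethylated arginine through a Tudor domain, and 3 libraries were made for each treatment. The labels give the treatment by a code name, which was taken to be compound 1 of the study, and its dose and duration for sequencing are not given in the sources used here. The labels give both groups as the same line and name no genetic change in either, and the column names of both groups carry WT. The study describes its cell culture replicates in general as treatments divided from a shared batch of cells and handled together.

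Mitochondria translate the few proteins encoded by their own DNA on a separate ribosome, the mitoribosome. Its RNAs are transcribed inside the organelle, whereas all of its proteins are made from nuclear genes, translated in the cytosol and imported. The proteins of the large subunit carry the prefix Mrpl and those of the small subunit Mrps, and some have a counterpart in the bacterial ribosome while others were added in the mitochondrial lineage.

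Between 59070705 and 94747943 counts were assigned to genes per library, and each compound 1 library was deeper than each DMSO library. Levels are given as CPM (counts scaled to library size with TMM factors) for 1 gene across libraries, and as FPKM, which is also divided by gene length, between genes. The α cell markers Gcg and Pcsk2 were abundant, at 17893 ± 1277 (SD, n = 3) and 390.4 ± 4.06 (SD, n = 3) FPKM with DMSO. With compound 1, Gcg (2631 ± 342 (SD, n = 3) FPKM) and Pcsk2 (238 ± 6.54 (SD, n = 3) FPKM) were lower, with log2 fold changes of -2.76 and -0.71, as was the α cell gene Irx2 (-0.64, adjusted p 0.03203). Of 15 markers of other cell types, 14 were under 1 FPKM in both groups, and the exception was the β cell gene Nkx6-1 at 3.19 FPKM with DMSO. In RNA from bulk cultures, fewer cells of a kind and less RNA per cell cannot be told apart. Of the members, 77 passed the filter on low counts and were tested by edgeR. The exception was Mrpl53, with 0 counts in all 6 libraries, and all of its exon sequence overlaps the gene models Gm42688 and Ccdc142os.

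Relative to the other genes counted, mRNA of many mitoribosomal proteins was lower with compound 1 and that of a few was higher. At an adjusted p under 0.05 in edgeR's quasi-likelihood test, 19 of the 77 tested members were lower and 3 were higher (24.7% and 3.9%), against 7.8% and 6.98% of all 15082 tested genes. In either direction, 28.6% of the members and 14.8% of all tested genes were called. These shares are not from genes of like level or precision. The median FPKM with DMSO was 64.5 for the members and 2.83 for all tested genes, and the median standard error was 0.14 and 0.43. The median log2 fold change of the members was -0.21, and that of all tested genes was 0.04. Scaling by library size alone moved the median of all genes to 0.25, the median of the Mrpl genes from -0.22 to -0.02 and that of the Mrps genes from -0.17 to 0.04, and 11 members were then lower and 8 higher. Relative to the median of all genes, the Mrpl median was -0.26 with either scaling and -0.16 with gene length offsets. The Mrps median relative to all genes was -0.21 with TMM, -0.20 with library size, -0.12 with gene length offsets and -0.06 without library A of compound 1. Other scaling factors move all genes by nearly the same amount, so the match between TMM and library size was fixed in advance. With the column letter as a replicate block, 11 members were lower and 2 higher, and the calls of Mrpl16, Mrpl17, Mrpl24, Mrpl42, Mrps7, Mrps10, Mrps14, Mrps25 and Mrps35 were lost.

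In a count of separation rather than of size, the 3 libraries of each treatment did not overlap for 34 members that were lower and 9 that were higher. Among all tested genes, 18.5% did not overlap with compound 1 lower and 18.2% with it higher. The changes were mostly small, and 52 of 77 members lay within 0.5 of 0 on the log2 scale. Under the filter of the study, an adjusted p of at most 0.1 with a log2 fold change of at least 1 in size, 1 member was higher (Mrps9) and 3 were lower (Mrpl36, Mrpl20 and Mrpl41). That filter passed 6.25% of all tested genes as higher and 4.16% as lower. The members took from 1.28% to 1.33% of all counts with compound 1 and from 1.37% to 1.41% with DMSO.

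**Figure D1:**
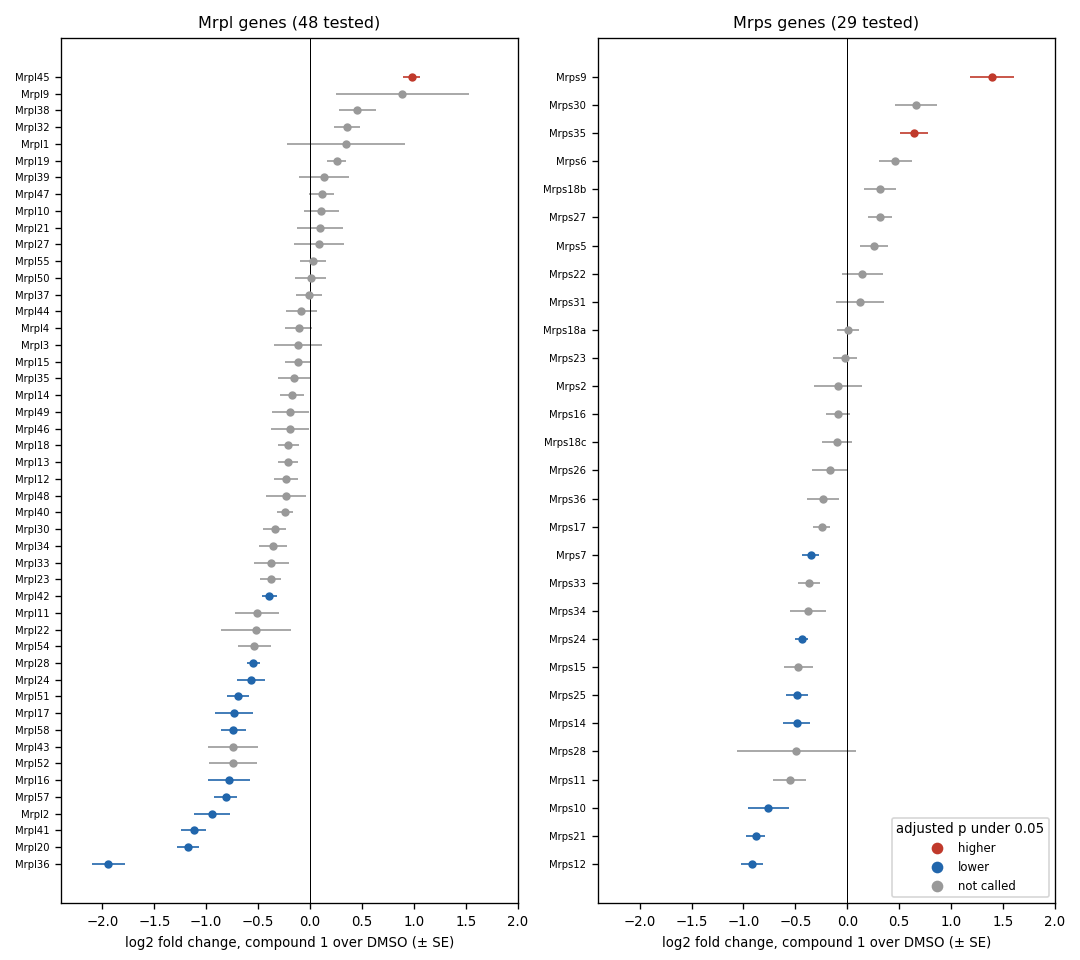
Log2 fold change of each tested member, compound 1 over DMSO, with its standard error (horizontal axis), for the 48 Mrpl genes (left) and 29 Mrps genes (right), sorted by value. Red marks the 3 members called higher, blue the 19 called lower and grey those not called by edgeR at an adjusted p under 0.05.

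Mrpl and Mrps genes gave similar counts. Of the Mrpl genes, 12 were lower and 1 was higher among 48 tested (25% and 2.08%). Of the Mrps genes, 7 were lower and 2 were higher among 29 (24.1% and 6.9%). These shares stand against 7.8% and 6.98% of all tested genes. The median of the Mrps genes, -0.17, was -0.04 without library A of compound 1, -0.08 without library B of DMSO and -0.25 without library A of DMSO. The difference between the classes was not tested, because the genes of a class are not replicates. The prefix does not always give the place in the ribosome. Mrps30 and Mrps18a sit in the large subunit of the mammalian mitoribosome, and Mrps36 belongs to the α-ketoglutarate dehydrogenase complex. Sorted by place, 12 of 50 tested large subunit genes were lower and 1 was higher, and 7 of 26 small subunit genes were lower and 2 were higher.

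The promoters of 5 of the changed members are shown as reference sequence. The first 2 are from genes that were higher and the others from genes that were lower. These 5 were not chosen by a rule, and each window shown holds a match. Mrpl20, Mrpl41 and Mrpl28, which were also lower, have windows without a match to the letters below and are not shown. Each window runs from 250 bases before to 50 bases after the RefSeq start in GRCm38.p6 and is written 5′ to 3′ on the strand of the gene. Capitals mark matches on either strand to the letters GCGCNTGCGC (bound by NRF1, a regulator of nuclear genes for mitochondria), CCGGAAG (the core of ETS factors such as GABPA) and AAGATGG (YY1). The windows are chr11:97315466-97315765 (plus strand), chr1:42850983-42851282 (plus), chr3:95871465-95871764 (minus), chr7:28741772-28742071 (minus) and chr13:73330759-73331058 (plus).
Mrpl45: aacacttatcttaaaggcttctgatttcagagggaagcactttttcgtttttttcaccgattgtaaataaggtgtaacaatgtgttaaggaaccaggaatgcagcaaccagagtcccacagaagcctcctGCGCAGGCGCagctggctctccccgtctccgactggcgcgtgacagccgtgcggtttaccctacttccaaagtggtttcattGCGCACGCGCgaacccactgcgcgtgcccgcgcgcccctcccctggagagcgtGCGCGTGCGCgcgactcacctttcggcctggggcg
Mrps9: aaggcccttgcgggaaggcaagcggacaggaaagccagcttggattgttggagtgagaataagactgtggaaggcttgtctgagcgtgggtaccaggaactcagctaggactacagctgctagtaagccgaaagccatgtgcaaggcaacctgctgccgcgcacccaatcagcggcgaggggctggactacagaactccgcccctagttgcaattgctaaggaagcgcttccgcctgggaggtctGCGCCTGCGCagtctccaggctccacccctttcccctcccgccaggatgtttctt
Mrps21: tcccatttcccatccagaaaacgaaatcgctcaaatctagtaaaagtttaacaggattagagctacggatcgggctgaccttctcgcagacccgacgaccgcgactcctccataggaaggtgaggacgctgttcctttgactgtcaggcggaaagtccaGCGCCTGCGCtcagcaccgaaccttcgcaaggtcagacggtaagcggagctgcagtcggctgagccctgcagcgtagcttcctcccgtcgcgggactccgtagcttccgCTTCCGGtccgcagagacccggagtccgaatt
Mrps12: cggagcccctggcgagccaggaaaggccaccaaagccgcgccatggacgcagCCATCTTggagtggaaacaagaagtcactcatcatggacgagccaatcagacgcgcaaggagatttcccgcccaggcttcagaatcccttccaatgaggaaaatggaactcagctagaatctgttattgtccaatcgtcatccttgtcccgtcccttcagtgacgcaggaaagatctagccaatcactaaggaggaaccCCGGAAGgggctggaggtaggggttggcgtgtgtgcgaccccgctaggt
Mrpl36: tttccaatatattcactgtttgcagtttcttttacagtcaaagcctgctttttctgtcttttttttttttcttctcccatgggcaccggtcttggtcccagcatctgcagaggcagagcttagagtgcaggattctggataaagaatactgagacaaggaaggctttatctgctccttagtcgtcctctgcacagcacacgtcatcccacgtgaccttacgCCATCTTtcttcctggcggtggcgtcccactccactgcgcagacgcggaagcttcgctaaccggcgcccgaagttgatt

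The Mrpl45 window holds the NRF1 letters 3 times and the Mrps9 window once. Mrps21 holds 1 NRF1 and 1 ETS match, Mrps12 1 ETS and 1 YY1 match, and Mrpl36 1 YY1 match. The Mrpl36 window starts from a RefSeq start that lies 2496 bases inside the gene as the count table bounds it. RefSeq gave a window for 69 members, and the NRF1 letters were in 13 of them (18.8%), against 12.5% of 9114 tested protein-coding genes and 7.4% of all 16802 with a window. The ETS letters were in 37.7% of the members, 21.7% of tested genes and 13.2% of all, and the YY1 letters in 18.8%, 8.7% and 7.2%. The TATA box letters TATAAA were in 5 members (7.2%), 8.1% of tested genes and 14.5% of all. These shares were not compared by a test. Members that were lower held these letters too: of 19 with a window, 3 had NRF1, 6 ETS and 5 YY1 letters. Each motif was searched on its own on both strands, with overlaps allowed. A match is a run of letters and no measured binding.

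Mrpl45 was the member with the smallest p and was higher with compound 1. Its protein sits at the rim of the exit tunnel, where the nascent chain leaves the large subunit, and ties the ribosome to the inner membrane. The gene (ENSMUSG00000018882, chr11:97315716-97329920 in GRCm38, 8 exons) measured 571, 594 and 537 CPM with compound 1 and 267, 298 and 299 CPM with DMSO. The groups were far apart, and the difference was 1.97-fold or 0.98 ± 0.08 (SE), with an adjusted p of 0.000754.

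Mrps9 encodes a protein of the head of the small subunit with a bacterial counterpart, and had the largest increase. The gene (ENSMUSG00000060679, chr1:42851233-42905683, 11 exons) measured 164, 111 and 101 CPM with compound 1 and 42.1, 49.99 and 50.9 CPM with DMSO. Every treated library was above every DMSO library, although library A was well above the other treated libraries. The difference was 2.63-fold or 1.39 ± 0.21 (SE), with an adjusted p of 0.00731. Mrps35, a protein of the head without a bacterial counterpart, measured 141, 174 and 136 CPM with compound 1 and 87.4, 100.1 and 102 CPM with DMSO. These groups did not overlap either, and the log2 fold change was 0.64 ± 0.13 (SE), with an adjusted p of 0.0228. The call of Mrps35 was lost without compound 1 library B or without any 1 of the DMSO libraries. Mrps30, the next by size of increase among members whose log2 CPM averaged 3 or more, measured 114, 118 and 161 CPM with compound 1 and 73.99, 103 and 71.8 CPM with DMSO and did not pass (log2 fold change 0.66 ± 0.20 (SE), with an adjusted p of 0.0764).

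Mrpl36 fell most. It encodes a small zinc-binding protein of the large subunit that is shared with bacteria. The gene (ENSMUSG00000021607, chr13:73328513-73332178, 3 exons) measured 53.2, 77.6 and 61.02 CPM with compound 1 and 234, 266 and 238 CPM with DMSO. No treated library came near a DMSO library, and the level was 3.85-fold lower, a log2 fold change of -1.94 ± 0.16 (SE), with an adjusted p of 0.000763.

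Mrpl20 and Mrpl41 were the next by size. Mrpl20 (ENSMUSG00000029066, chr4:155802878-155809975), whose bacterial counterpart binds 23S rRNA early in assembly, measured 247, 211 and 229.6 CPM with compound 1 and 486, 579.9 and 485 CPM with DMSO. The groups did not overlap, and the level was 2.25-fold lower, a log2 fold change of -1.17 ± 0.10 (SE), with an adjusted p of 0.00108. Mrpl41 (ENSMUSG00000036850, chr2:24974117-24975098), a protein without a bacterial counterpart, measured 80.2, 95.1 and 87.9 CPM with compound 1 and 189, 209.9 and 174 CPM with DMSO. It was 2.18-fold lower without overlap, a log2 fold change of -1.12 ± 0.12 (SE), with an adjusted p of 0.00185.

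Other proteins of the large subunit fell by less. Mrpl28, the member with the highest level per length, measured 838, 939 and 852 CPM with compound 1 and 1304, 1253 and 1285 CPM with DMSO. Its libraries lay close together within each group, and the log2 fold change was -0.55 ± 0.06 (SE), with an adjusted p of 0.00252. Mrpl57, without a bacterial counterpart, measured 87.5, 85.7 and 84.6 CPM with compound 1 and 135, 156 and 162 CPM with DMSO. The treated libraries were nearly equal and all below DMSO, and the log2 fold change was -0.81 ± 0.11 (SE), with an adjusted p of 0.00457. Mrpl51, also without one, measured 212, 182 and 196 CPM with compound 1 and 347, 325 and 286 CPM with DMSO, and the log2 fold change was -0.70 ± 0.11 (SE), with an adjusted p of 0.00741. Mrpl58, a peptidyl-tRNA hydrolase that is built into the ribosome, measured 265, 283 and 252 CPM with compound 1 and 370.3, 486 and 479 CPM with DMSO. Its groups did not overlap, and the log2 fold change was -0.74 ± 0.12 (SE), with an adjusted p of 0.00965. Mrpl42 measured 339, 307 and 321 CPM with compound 1 and 407, 435 and 426 CPM with DMSO, a small difference without overlap and a log2 fold change of -0.39 ± 0.07 (SE), with an adjusted p of 0.0146. The call of Mrpl42 was lost without DMSO library B or without DMSO library C, with gene length offsets, and with library size only, where the log2 fold change was -0.19. Mrpl2, near the site of peptide bond formation, had a log2 fold change of -0.95 ± 0.17 (SE), with an adjusted p of 0.0147, but the call was lost without compound 1 library B or without library C.

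In the small subunit, Mrps12 and Mrps21 fell most. Mrps12 (ENSMUSG00000045948, chr7:28739641-28741820), the protein of the decoding centre, measured 142, 131 and 119.6 CPM with compound 1 and 233, 267 and 242 CPM with DMSO. It was 1.89-fold lower without overlap, a log2 fold change of -0.92 ± 0.10 (SE), with an adjusted p of 0.00252. Mrps21 (ENSMUSG00000054312, chr3:95862634-95871519), whose bacterial counterpart binds late in assembly, measured 149.5, 132 and 129 CPM with compound 1 and 247, 249 and 259 CPM with DMSO. It was 1.84-fold lower without overlap, a log2 fold change of -0.88 ± 0.09 (SE), with an adjusted p of 0.00186. A near-identical processed pseudogene, Gm6181, held 10.1% as many counts as Mrps21, the most among called members with such a copy.

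Mrps24, the counterpart of bacterial protein S3 at the mRNA entry, measured 382, 369 and 372 CPM with compound 1 and 513, 498 and 513 CPM with DMSO. The libraries of each group differed little, and the log2 fold change was -0.44 ± 0.06 (SE), with an adjusted p of 0.00517. Mrps25 measured 86.3, 78.4 and 75.2 CPM with compound 1 and 113, 109 and 113 CPM with DMSO, and the log2 fold change was -0.48 ± 0.11 (SE), with an adjusted p of 0.0271. Of its exon sequence, 58.2% overlaps Nr2c2 on the opposite strand, and the counting ignored strand. The call of Mrps25 was lost without any 1 library other than compound 1 library A. Mrps10, just inside the threshold, measured 137, 199 and 116 CPM with compound 1 and 237, 250.3 and 277 CPM with DMSO, and the log2 fold change was -0.76 ± 0.20 (SE), with an adjusted p of 0.0494. Mrpl23, just outside it, measured 93.1, 90.02 and 85.6 CPM with compound 1 and 113, 124 and 113 CPM with DMSO, and the log2 fold change was -0.38 ± 0.10 (SE), with an adjusted p of 0.0523.

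**Figure D2:**
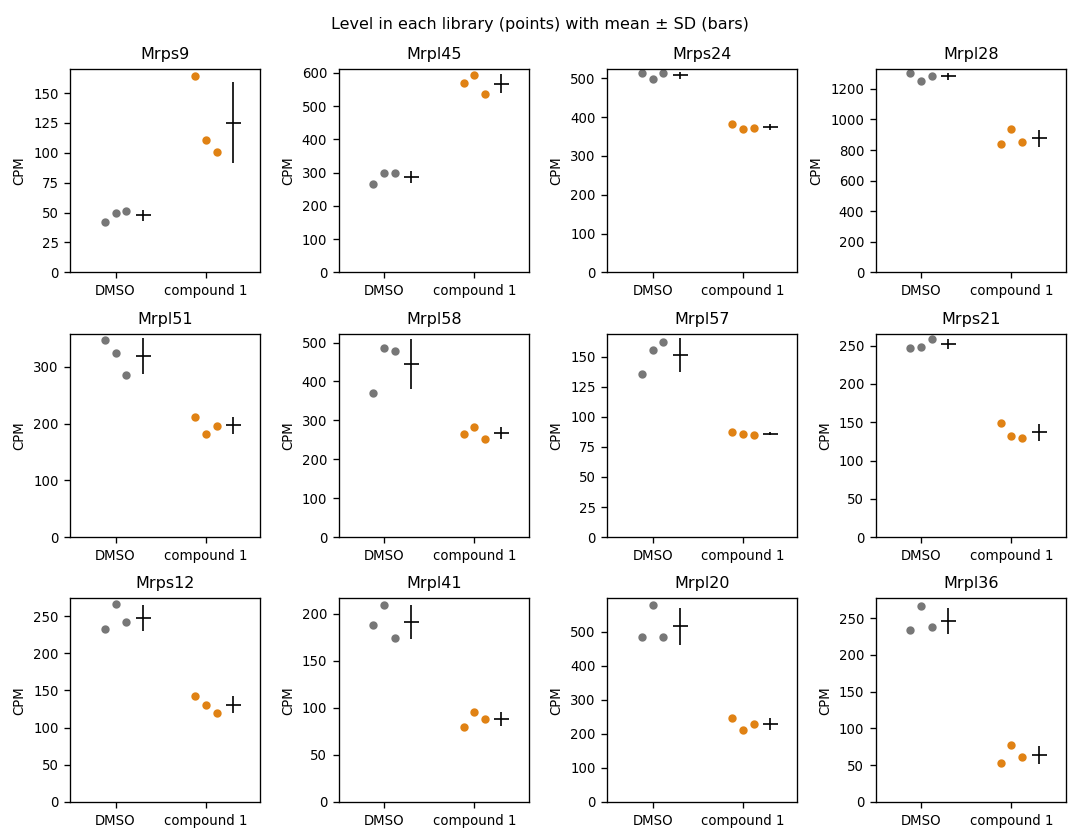
CPM of the 12 members that were called under every alternative setting, in each DMSO library (grey) and each compound 1 library (orange), with the group mean and SD (black, n = 3), every axis starting at 0. Mrps9 and Mrpl45 are above DMSO in all 3 treated libraries, and the other 10 genes are below it in all 3.

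The other members called lower were Mrpl16, Mrpl17, Mrpl24, Mrps7 and Mrps14, with log2 fold changes from -0.78 to -0.35 and adjusted p from 0.0345 to 0.0474. Each of these 5 calls was lost when 1 of several libraries was left out. Of the exon sequence of Mrpl24, 38.2% overlaps Rrnad1 on the opposite strand. All 22 called members kept their sign in every alternative, and 12 of them were called in each.

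By position in the ribosome, the counts are small and the regions were not compared by a test. Of the 8 tested members of the small subunit head, 4 were lower (Mrps24, Mrps7, Mrps14 and Mrps10) and 2 were higher (Mrps9 and Mrps35), so the same structural region held both directions. At the exit tunnel rim, 2 of 6 were lower (Mrpl24 and Mrpl17) and Mrpl45 was higher. The lower and higher shares were 50% and 25% for the head and 33.3% and 16.7% for the rim. Of all tested genes, 7.8% were lower and 6.98% higher. None of the 3 listed stalk proteins, which recruit translation factors, and none of the 6 listed for the central protuberance passed the test. Their log2 fold changes ran from -0.51 to 0.11 and from -0.24 to 0.46. The lists of regions may be incomplete, and Mrpl58, which was called lower, was assigned to none of them. At an unadjusted p under 0.05 there were 1 of the stalk and 2 of the central protuberance, and DESeq2 called 0 and 1. With library size only, 1 member of the head was lower and 2 were higher, and 0 of the exit tunnel rim were lower. With any 1 library left out, 1 to 2 members of the head were lower and 1 to 2 higher, and of the exit tunnel rim 0 were lower except without DMSO library B, where 1 was.

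Among small subunit proteins with a bacterial counterpart, 6 of 16 were lower and 1 was higher (37.5% and 6.25%), with a median log2 fold change of -0.40. Among those without a counterpart, 1 of 10 was lower and 1 was higher (10% and 10%), with a median of 0.05. Of all tested genes, 7.8% were lower and 6.98% higher. In the large subunit, the medians were -0.21 for the 30 tested members with a counterpart and -0.21 for the 20 without one. These classes were not compared by a test, and the split was made only with TMM and all libraries. The median of all Mrps genes was -0.17 in that fit, 0.04 with library size only and -0.04 without library A of compound 1.

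The levels with DMSO spanned 3 orders of magnitude. Mean FPKM of the tested members ran from 1.05 to 1102 with a median of 64.5, and 44 lay within 3-fold of the median. The highest level was that of Mrpl28, at 1102 ± 23.8 (SD, n = 3) FPKM. Mrpl12, a stalk protein, followed at 626 ± 35.5 (SD, n = 3) FPKM and Mrpl42 at 572 ± 19.3 (SD, n = 3) FPKM, which differ by less than 2 SD of Mrpl12. Among Mrps genes, Mrps21 and Mrps24 were level at 469.9 ± 13.0 (SD, n = 3) and 469 ± 9.06 (SD, n = 3) FPKM, within 1 SD of each other, and Mrps18a had 370.5 ± 50.1 (SD, n = 3) FPKM. Neither Mrpl12 (log2 fold change -0.23 ± 0.11 (SE), with an adjusted p of 0.238) nor Mrps18a (0.00 ± 0.11 (SE), with an adjusted p of 0.9902) passed the test.

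At the low end, 4 tested members were under 10 FPKM. Mrpl9 had 1.05 ± 0.806 (SD, n = 3) FPKM with DMSO and Mrpl1 1.21 ± 0.819 (SD, n = 3) FPKM, and the gap between them is within their spread. Mrpl9 measured 6.95, 5.64 and 3.87 CPM with compound 1 and 1.20, 2.17 and 5.52 CPM with DMSO, and its log2 fold change of 0.89 ± 0.64 (SE), with an adjusted p of 0.4304, was the least precise of all members. Mrpl1 measured 7.42, 6.27 and 7.83 CPM with compound 1 and 2.04, 5.23 and 9.64 CPM with DMSO, and the groups overlapped. Mrps28 had 4.998 ± 2.98 (SD, n = 3) FPKM and measured 4.27, 2.596 and 2.25 CPM with compound 1 and 2.43, 7.17 and 3.18 CPM with DMSO, with overlap. Mrps31 and Mrps25 had 12.04 ± 0.731 (SD, n = 3) and 16.9 ± 0.389 (SD, n = 3) FPKM. The FPKM of Mrps25 is divided by its full exon length, including the stretch shared with Nr2c2, and may be too low. Mrps31 measured 23.5, 16.5 and 24.8 CPM with compound 1 and 19.3, 21.3 and 18.97 CPM with DMSO. Across the 77 members, the log2 fold change went down with the log2 FPKM with DMSO (Pearson's r -0.46, Spearman's rho -0.48). That level is also the denominator of the fold change, and all members share the same libraries.

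**Figure D3:**
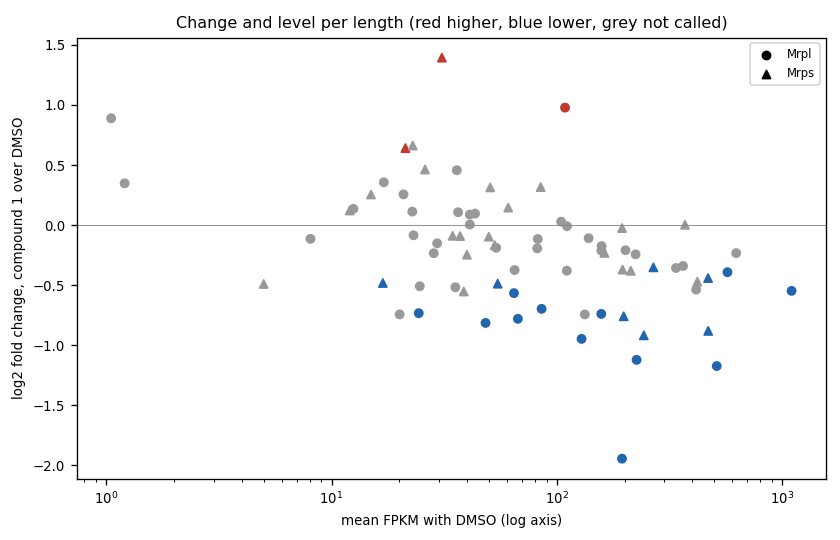
Log2 fold change (vertical axis) against mean FPKM with DMSO (horizontal log axis) for the 77 tested members, Mrpl as circles and Mrps as triangles, red higher, blue lower and grey not called. Mrpl28, at 1102 FPKM, lies farthest to the right, and Mrpl9, at 1.05 FPKM, farthest to the left.

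The number of exons was not used in the choice of members, and the classes were not compared by a test. Exons were counted in the annotated transcript of a gene with the most exons. Of 19 members with 1 to 3 exons, 8 were lower (42.1%) and 0 higher, with a median log2 fold change of -0.49. Of other tested protein-coding genes in the class, 13.8% were lower and 6.7% higher. Of 35 members with 4 to 6 exons, 9 were lower (25.7%) and 0 higher, against 13.7% and 8.1%, with a median of -0.23. Of the 23 with 7 or more exons, 3 were higher (13.0%) and 2 lower (8.7%), shares near the 8.7% and 6.5% of other genes, and the median was 0.12. The medians of other tested protein-coding genes in the same classes were -0.15, -0.05 and 0.17. Spearman's rho between log2 fold change and exon number was 0.45 over the 77 members and 0.14 over 11333 other genes.

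Exon length showed a similar order. The 21 members under 1 kb had a median log2 fold change of -0.39, beside -0.34 for 531 other protein-coding genes of that length. For members of 1 to 2 kb it was -0.19 beside -0.15, for those of 2 to 4 kb -0.09 beside 0.08, and for those of 4 kb and over -0.12 beside 0.29. Under 1 kb, 28.6% of members and 26.6% of other protein-coding genes were called lower, and for 1 to 2 kb 23.3% and 16.7%. For 2 to 4 kb these shares were 26.7% and 8.47%, and for 4 kb and over 18.2% and 3.72%. In either direction, the shares in order of length were 28.6% beside 31.1%, 26.7% beside 24.6%, 33.3% beside 17.8% and 27.3% beside 11.7%. With an offset for gene length in the fit, 16 members were lower and 3 higher. Over the members, exon length went with FPKM with DMSO (Spearman's rho -0.59) and less with exon number (0.22), and the part of each in the counts was not tested.

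**Figure D4:**
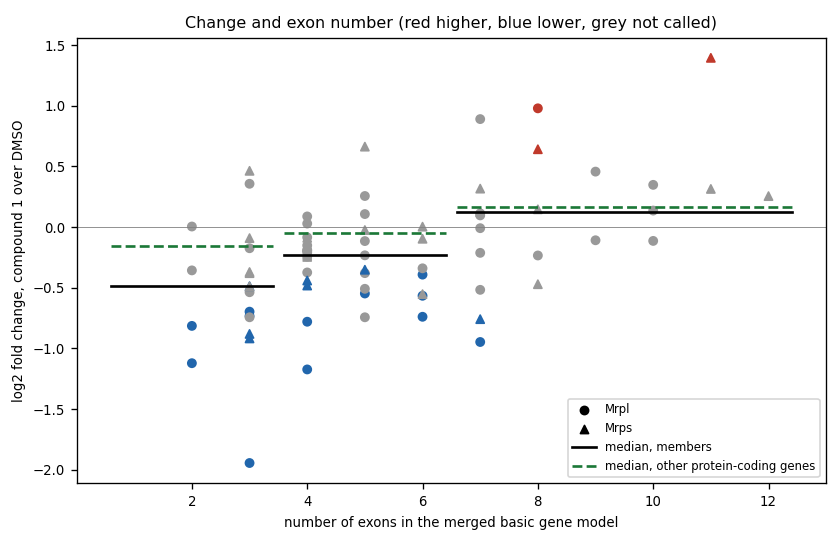
Log2 fold change (vertical axis) against the number of exons (horizontal axis) for the 77 tested members, Mrpl as circles and Mrps as triangles, red higher, blue lower and grey not called. Exons were counted in the annotated transcript with the most exons, although the axis label names a merged gene model. Solid lines give the medians of the members per exon class (-0.49, -0.23 and 0.12) and dashed lines those of other protein-coding genes (-0.15, -0.05 and 0.17).

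The mitoribosomal proteins that carry other names did not pass the test. For Dap3, Chchd1, Aurkaip1, Ptcd3 and Gadd45gip1, edgeR and DESeq2 each called 0 of 5, and 0 had an unadjusted p under 0.05, with log2 fold changes from -0.37 (Chchd1) to 0.24 (Ptcd3). Of the factors that carry out mitochondrial translation, 4 of 14 tested were higher and 0 lower, with a median log2 fold change of 0.00, or 0.21 with library size only. Of all tested genes, 6.98% were higher. Only 1 was higher without compound 1 library B, without DMSO library A, without DMSO library C or with gene length offsets, and 2 without DMSO library B or with the replicate block. Guf1, an elongation factor that acts on paused ribosomes, measured 102, 82.02 and 92.1 CPM with compound 1 and 39.9, 36.5 and 51.4 CPM with DMSO, without overlap, and a log2 fold change of 1.11 ± 0.17 (SE), with an adjusted p of 0.008296. Mtif3, an initiation factor, measured 105, 153 and 105 CPM with compound 1 and 57.8, 62.2 and 38.5 CPM with DMSO, and the log2 fold change was 1.19 ± 0.24 (SE), with an adjusted p of 0.0203. Oxa1l, the insertase that receives nascent chains at the inner membrane, had a log2 fold change of 0.77 ± 0.18 (SE), with an adjusted p of 0.03605, and Lrpprc, which stabilises mitochondrial mRNA, 0.70 ± 0.17 (SE), with an adjusted p of 0.0379. Tufm, the elongation factor Tu, was not called at -0.17.

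Among factors that assemble the mitoribosome or modify its RNA, 26 were tested, of which 4 were higher and 1 was lower (15.4% and 3.85%, against 6.98% and 7.8% of all tested genes), 20 had a positive log2 fold change, and the median was 0.42. With library size only, 6 were higher and 0 lower, and with gene length offsets 3 and 0. The counts moved with single libraries, and 0 were higher and 0 lower without DMSO library C, 1 and 0 without DMSO library A or with the replicate block, 1 and 1 without DMSO library B, and 2 and 0 without compound 1 library A or C. Mterf4, which brings an rRNA methyltransferase to the large subunit, measured 88.7, 71.1 and 65.7 CPM with compound 1 and 43.8, 39.2 and 45.1 CPM with DMSO, and the log2 fold change was 0.82 ± 0.16 (SE), with an adjusted p of 0.0192. The GTPase Mtg2 had 0.82 ± 0.17 (SE), with an adjusted p of 0.0221. The small subunit GTPase Eral1 had 0.92 ± 0.20 (SE), with an adjusted p of 0.02801, and Malsu1, which keeps the immature large subunit from joining, 0.68 ± 0.16 (SE), with an adjusted p of 0.0335. Mpv17l2, a membrane protein needed for assembly, was the member of this list that fell, from 268, 235 and 274 CPM with DMSO to 166, 191 and 145 CPM with compound 1 and a log2 fold change of -0.63 ± 0.13 (SE), with an adjusted p of 0.0203.

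The rRNAs encoded by mitochondrial DNA were both higher. The small subunit rRNA mt-Rnr1 measured 725, 606 and 726 CPM with compound 1 and 379, 403 and 409.8 CPM with DMSO, and the log2 fold change was 0.79 ± 0.09 (SE), with an adjusted p of 0.00265. The large subunit rRNA mt-Rnr2 had a log2 fold change of 0.50 ± 0.10 (SE), with an adjusted p of 0.0226. Just 1 of the 2 was called with the replicate block and when any 1 library other than compound 1 library B was left out. The libraries were primed at poly(A) tails, so levels of rRNA in them depend on how much of it carries such a tail. Of 13 mRNAs encoded by mitochondrial DNA, mt-Co1 (1.498), mt-Nd6 (1.11) and mt-Nd5 (0.73) were higher on the log2 scale and mt-Nd1 (-0.82) was lower. These are 23.1% and 7.69% of the list, against 6.98% and 7.8% of all tested genes. The median of the list was 0.00, or 0.21 with library size only. Some of these genes lie next to or opposite each other, and reads were counted without strand.

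Of the genes that transcribe or copy mitochondrial DNA, 1 of 8 was called, the polymerase Polg, with 48.3, 64.7 and 62.1 CPM with compound 1 and 28.0, 34.1 and 30.6 CPM with DMSO and a log2 fold change of 0.92 ± 0.18 (SE), with an adjusted p of 0.0174. The called share was 12.5% of this list and 14.8% of all tested genes. The median of this list was 0.60. With gene length offsets, or without compound 1 library B or C or DMSO library A, 0 of 8 were called. Among regulators of mitochondrial biogenesis, 2 of 8 tested were higher and 1 was lower (25% and 12.5%, against 6.98% and 7.8% of all tested genes). With library size only or without DMSO library C, 2 were higher and 0 lower. The counts were 1 and 0 with the replicate block or without compound 1 library A or C or DMSO library A or B. The coactivator Ppargc1a measured 301, 301 and 253 CPM with compound 1 and 84.96, 73.4 and 65.1 CPM with DMSO, far apart, and the log2 fold change was 1.93 ± 0.14 (SE), with an adjusted p of 0.000436. The nuclear receptor Esrra, its partner, measured 23.8, 18.2 and 10.5 CPM with compound 1 and 3.34, 3.96 and 7.69 CPM with DMSO, with 1.81 ± 0.47 (SE), with an adjusted p of 0.0453. Nrf1, whose motif is shown above, measured 35.9, 42.1 and 32.7 CPM with compound 1 and 59.6, 53.04 and 58.6 CPM with DMSO, without overlap, and a log2 fold change of -0.63 ± 0.16 (SE), with an adjusted p of 0.0407. The call of Nrf1 was lost with library size only, with the replicate block and with a filter of at least 1 count in any library. It was also lost with limma-trend on log2(FPKM + 1), and when any 1 library other than compound 1 library B was left out. Gabpa (1.17) and Yy1 (0.84) were not called.

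**Figure D5:**
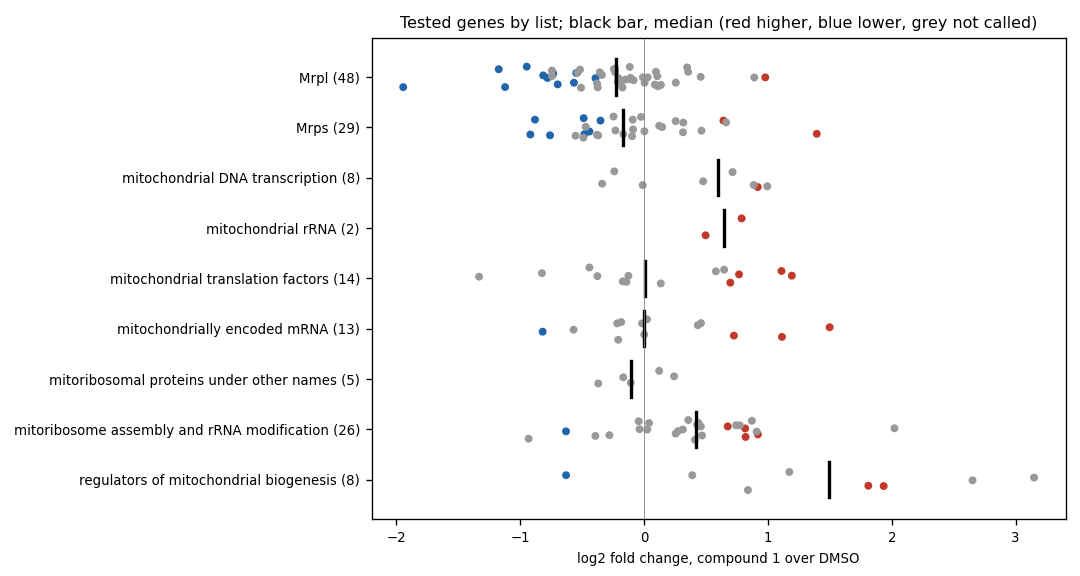
Log2 fold change, compound 1 over DMSO (horizontal axis), of each tested gene in the Mrpl and Mrps classes and in 7 lists of related genes, with the number tested in brackets and the median as a black bar. The medians are -0.22 for Mrpl, -0.17 for Mrps, 0.42 for assembly factors and 0.60 for mitochondrial DNA transcription.

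The proteins of the cytosolic ribosome, counted in the same way, gave 36 lower and 1 higher of 77 tested. These are 46.8% and 1.3%, against 7.8% and 6.98% of all tested genes. Their median log2 fold change was -0.41. With library size only, 19 were lower and 2 higher, with a median of -0.21, and 23 to 28 were lower with 1 library left out (23 without DMSO library A). Their median FPKM with DMSO was 296, and their median exon length was 975 bases against 1398 for the mitoribosomal members. The difference between the families was not tested.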

How the data were processed

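RNA of 6 αTC1 libraries, 3 per treatment, was prepared by Smart-seq2 and Nextera XT and read as pairs of 100 bp. The authors aligned reads to GRCm38 with the basic Ensembl annotation and deposited counts, whole numbers per gene that ignore strand and leave out reads shared by 2 genes. They also deposited FPKM, scaled per kilobase and between libraries. The submitters' processing notes name STAR 2.7.9a, Picard 2.19.2, DESeq2 1.34.0 and R 4.1.3. Each column name holds WT, the treatment and a letter, whereas the labels number the replicates, so each column was assigned to a group only. The study says of cell culture in general that the treatments of a replicate came from a shared batch of cells, and whether a letter marks such a replicate is not given in the sources used here.

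Differences in counts were tested with edgeR 4.0.16 (R 4.3.3), after filterByExpr (minimum count 10, minimum total 15), TMM and the quasi-likelihood test. P-values of the 15082 tested genes were adjusted by Benjamini-Hochberg. Standard errors are the absolute log2 fold change over the square root of F. P-values measure the spread between these libraries, which may be technical. Members and gene lists were chosen with earlier results of these data known. The lists and the places of the proteins were written from general knowledge. Named members are the 8 Mrpl and 6 Mrps genes with the smallest p, the 3 largest increases and decreases at an average log2 CPM of at least 3, the 3 highest and lowest by FPKM in each class, and those nearest to the threshold. Further members, and genes of the other lists beyond the 3 with the smallest p, are named for their call or role, after their values were seen.

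Alternatives were DESeq2 1.42.0, RLE factors, library size only, at least 1 count in any library, at least 10 in every library, gene length offsets, limma-trend (limma 3.58.1) on log2(FPKM + 1) or log2(FPKM + 0.1) at a mean FPKM of at least 1 and on log2(FPKM + 1) without a minimum, an adjusted p of at most 0.1, and each library left out in turn. A replicate block by letter was chosen after seeing the data. The tools were tested on simulated data. Near-identical copies, of at least 250 bases at 95% identity, were found with blastn 2.17.0. Positions were the same in GENCODE vM21 for all 78 members. Promoter windows are from RefSeq (GRCm38.p6). Python 3.11.15 with pandas 2.3.3 and matplotlib 3.10.9 made the tables and plots. At this depth counting error is small for members other than Mrpl1, Mrpl9 and Mrps28.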

Additional observations from a re-analysis of the deposited data

How the results depend on the processing

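The count of members called higher was 8 with DESeq2, 8 with library size only and 5 with limma-trend on log2(FPKM + 1) or log2(FPKM + 0.1) at a mean FPKM of at least 1. It was 2 to 3 with a library left out. The count of members called lower was 29 with DESeq2, 11 with library size only, 29 at an adjusted p of at most 0.1 and 11 to 15 with a library left out. The Mrpl genes called in either direction were 21 with DESeq2 and 9 to 11 with a library left out. The Mrps genes called were 16 with DESeq2, 14 at an adjusted p of at most 0.1 and 4 to 7 with a library left out. The cause of these differences was not tested. With library size only, the median log2 fold change was -0.016 for Mrpl and 0.041 for Mrps, and with gene length offsets it was -0.195 for Mrpl. With a library left out it ran from -0.27 to -0.22 for Mrpl and from -0.248 to -0.042 for Mrps.

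With a replicate block by column letter, 11 members were lower and 4 Mrps genes were called in either direction. Deviations from the group means of libraries with the same letter correlated at 0.007, 0.002 and 0.019, and no source used here says that a letter marks a shared batch of cells. Among the members named by the rule, a fold change changed sign under 0 of these settings except with a library left out, and then for 3 that were not called. The log2 fold change ran from -0.084 to 0.10 for Mrps18a, from -0.055 to 0.97 for Mrpl1 and from -0.81 to 0.11 for Mrps28. The low counts of Mrpl1 and Mrps28 limit their precision.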
